A study of Mus musculus with 7 samples.

Results

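The genes described here are 30 protein-coding genes of mouse chromosome 15 that lie beside the ends of the Koa inversion. They were chosen by position, as non-Hox genes beside the Hoxc cluster and genes around Trps1, and are 30 of 22552 genes in the table. RNA was measured by sequencing in 7 libraries of cells purified by flow sorting from skin of CD1/C3H mice at postnatal day 50. Koa ear dermis and Koa ear epidermis came from Wt/Koa mice, which carry 1 copy of the inversion allele. Dorsal dermis, tail dermis and ear dermis, and dorsal epidermis and ear epidermis, came from Wt/Wt (WT) mice. Each of the 7 groups had 1 library, so no difference has a replicate check, no test between conditions was made, and nothing states how many animals gave each library. The labels give a cell type for 6 libraries, while for the tail library the word dermis stands only in its title.

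Koa, short for koala, is a dominant mouse allele with hairy ears in which a long stretch of chromosome 15 is turned round. An inversion keeps the genes inside it but gives the genes at its ends new neighbours, and enhancers near an end can then meet other promoters. Near the Hoxc end lie the Hoxc genes, which encode homeodomain factors of positional identity along the body axis, and near the other end lies Trps1, a GATA-type zinc-finger repressor needed for normal hair. The genes compared here are their neighbours, most of them with basic functions in splicing, chromatin, translation and transport.

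In the RefSeq annotation of GRCm38, the Hoxc cluster spans chr15:102921131-103036856 and Trps1 lies on the minus strand at chr15:50654757-50890631, 52.0 Mb away. The break positions are not given in the sources used here, so genes are placed by their distance to the Hoxc cluster or to Trps1. At the Trps1 end, 2 genes (Csmd3 and Trps1 itself) lie up to and including Trps1 on the centromeric side. A further 8 genes (Eif3h, Utp23, Rad21, Aard, Slc30a8, Med30, Ext1 and Samd12) lie 896 to 2508 kb telomeric of Trps1. At the Hoxc end, 10 genes (Calcoco1, Atf7, Npff, Tarbp2, Map3k12, Pcbp2, Prr13, Amhr2, Sp1 and Sp7) lie 199 to 554 kb centromeric of the cluster. The remaining 10 genes (Smug1, Cbx5, Hnrnpa1, Nfe2, Copz1, Gpr84, Zfp385a, Itga5, Gtsf1 and Nckap1l) lie 116 to 417 kb telomeric of it.

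Some of these genes share sequence. Pcbp2 and Map3k12 overlap by 2422 bp on opposite strands, Map3k12 and Tarbp2 overlap by 928 bp, and Tarbp2 and Npff lie 162 bp apart. Whether the counting used strand is not given in the sources used here, so reads in the overlaps cannot be assigned with certainty. An annotated read-through transcript spans Atf7 and Npff, and Hnrnpa1 has processed copies elsewhere in the genome, so the levels of these 3 genes are uncertain to that extent.

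Promoter windows, the 250 bases before a start in RefSeq GRCm38.p6, were found for 15 of the 30 genes, with 19 windows in all. All 15 lie at the Hoxc end, so the windows say nothing of the genes at the Trps1 end. The GC box GGGCGG, the letters bound by Sp1, occurred on either strand in 16 of the 19 windows (84.2%), against 44.3% of 18470 windows over the table. TATAAA occurred in 0 of the 19 windows, against 11.3% of all windows. The GATA letters AGATAA occurred in 1 window, that of Sp1, against 8.63% of all windows. The number of CpG pairs per window had a median of 14.0 in the 19 windows and 10 in all windows. A match is a description of letters and not a binding site. The 4 windows below were picked for the genes that the results turn on: Calcoco1, the closest of the 10 genes on the centromeric side of the Hoxc cluster and higher in both Koa layers; Cbx5 and Hnrnpa1, neighbours with divergent starts 545 bp apart; and Itga5, whose level spread widest among the 20 genes found at 1 FPKM or more in every library. The RefSeq bounds of Cbx5 and Hnrnpa1 reach into their own windows, because other starts of these genes are annotated there. The windows are Calcoco1 at chr15:102722179-102722428 on the minus strand, Cbx5 at chr15:103239853-103240102 on the minus strand, Hnrnpa1 at chr15:103240147-103240396 on the plus strand and Itga5 at chr15:103366792-103367041 on the minus strand. They hold 3, 2, 2 and 2 GC boxes, in that order. Each is written 5′ to 3′ on the strand of its gene, and capitals mark the GC box or its reverse complement CCGCCC, with overlapping matches counted.
Calcoco1: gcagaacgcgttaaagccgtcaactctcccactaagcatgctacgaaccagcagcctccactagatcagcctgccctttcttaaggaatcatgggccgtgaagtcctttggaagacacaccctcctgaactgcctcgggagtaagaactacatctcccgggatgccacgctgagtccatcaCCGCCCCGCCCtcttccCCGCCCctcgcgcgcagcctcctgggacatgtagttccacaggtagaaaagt
Cbx5: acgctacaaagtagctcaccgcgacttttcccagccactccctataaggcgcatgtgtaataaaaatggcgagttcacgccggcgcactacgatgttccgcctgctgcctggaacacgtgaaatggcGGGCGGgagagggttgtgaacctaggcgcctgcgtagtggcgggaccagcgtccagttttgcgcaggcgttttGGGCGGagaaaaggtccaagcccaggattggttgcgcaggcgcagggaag
Hnrnpa1: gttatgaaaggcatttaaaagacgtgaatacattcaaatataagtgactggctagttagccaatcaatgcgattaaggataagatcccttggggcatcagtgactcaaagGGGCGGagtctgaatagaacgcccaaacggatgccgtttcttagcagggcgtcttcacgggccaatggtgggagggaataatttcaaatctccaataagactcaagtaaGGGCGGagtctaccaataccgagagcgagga
Itga5: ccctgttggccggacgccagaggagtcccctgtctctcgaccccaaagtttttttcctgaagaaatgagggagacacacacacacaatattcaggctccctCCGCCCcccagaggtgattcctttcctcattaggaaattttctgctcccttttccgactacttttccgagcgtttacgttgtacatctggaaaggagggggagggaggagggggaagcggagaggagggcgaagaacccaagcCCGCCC

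The unit is FPKM, which divides a gene's fragments by transcript length and by library depth, so levels can be compared between genes. Of the 30 genes, 20 stood at 1 FPKM or more in all 7 libraries, 2 (Nckap1l and Aard) in some and 8 in none. Depth, recovered from steps in low values, was 31.7 to 40.4 M fragments for the ear and dorsal libraries; no depth could be had for tail dermis. The tail values were rounded to 2 decimals, and 222 genes that reached 10 FPKM everywhere else were at 0 there. Tail dermis also had 41.5 FPKM of Xist, the RNA that coats the inactive X chromosome of females, where no other library exceeded 0.122 FPKM, and its Y-linked Ddx3y was at 0, so it differs from the others in sex. Fibroblast markers summed to 6055 to 11191 FPKM in the 4 dermal libraries and to 29.0 to 45.8 FPKM in the 3 epidermal ones. Basal keratinocyte markers summed to 15220 to 20072 FPKM in epidermis, and in dermis to 1930 FPKM in Koa ear, 6387 FPKM in WT dorsal, 131 FPKM in WT tail and 775 FPKM in WT ear, with none of the 8 markers at 0. From the ratios of these markers between the layers, an epidermal share of 10.7% was estimated for Koa ear dermis, 37.7% for WT dorsal dermis and 7.16% for WT ear dermis. In such sorted populations, fewer cells of a type and less RNA per cell cannot be told apart.

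**Figure D1:**
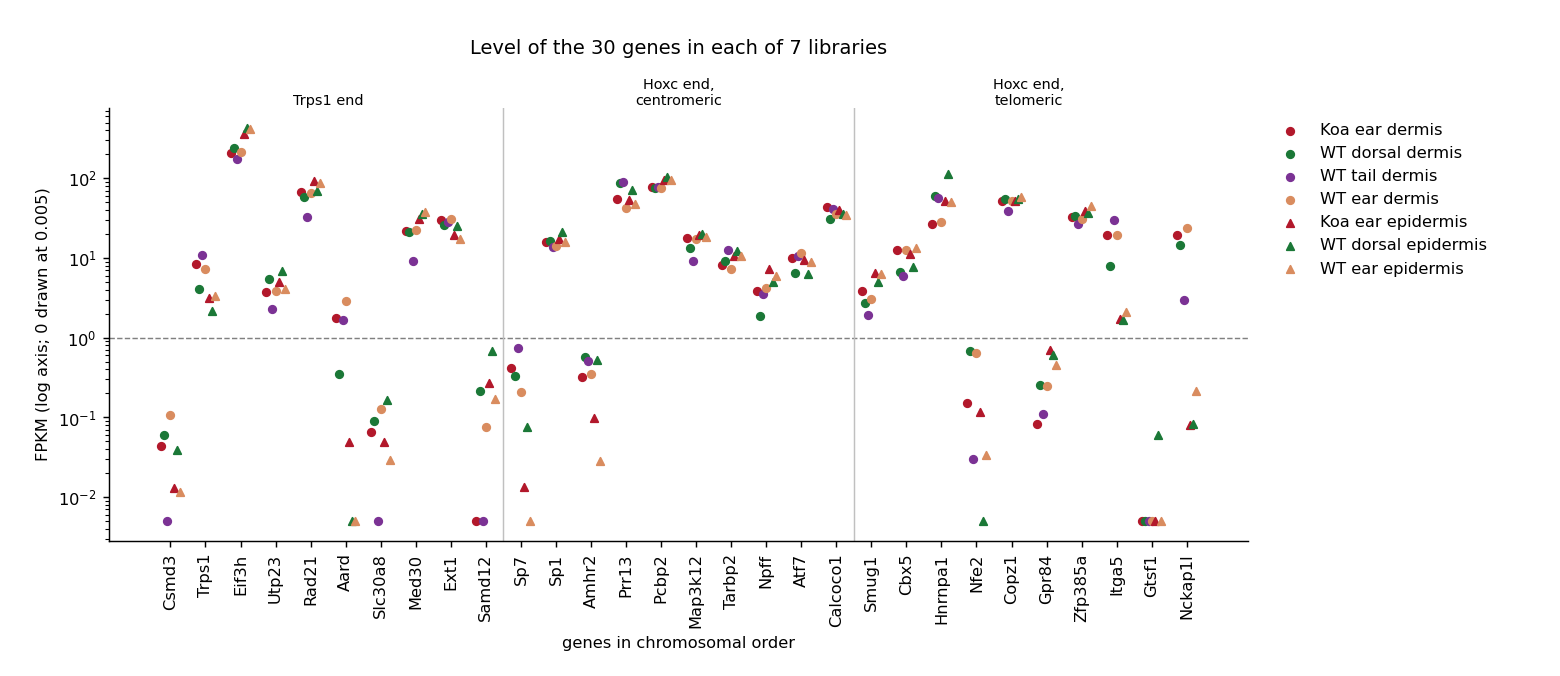
FPKM (log axis) of the 30 genes in chromosomal order, with 1 point per library, dermis as circles and epidermis as triangles, and a dashed line at 1 FPKM; values of 0 are drawn at the bottom. The 20 genes present throughout sit above the line in all 7 libraries, Nckap1l and Aard cross it, and the other 8 genes sit below it.

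Most of the constantly present genes serve basic cell functions, and their levels ranged widely. Eif3h, a subunit of the translation initiation factor eIF3, was the most abundant: 208 FPKM in Koa ear, 240 in WT dorsal, 175 in WT tail and 217 in WT ear dermis, and 365 in Koa ear, 431 in WT dorsal and 414 in WT ear epidermis. Pcbp2, a protein that binds C-rich RNA, had the next highest median over the 7 libraries, with 74.9 to 78.6 FPKM in WT dermis, 79.0 FPKM in Koa ear dermis and 94.9 to 103 FPKM in epidermis. Both were higher in each epidermal library than in each dermal one. Rad21, the cleavable subunit of the cohesin ring, stood at 33.1 FPKM in tail dermis and at 58.7 to 93.0 FPKM in the other 6 libraries. At the low end, Smug1, a glycosylase that removes uracil from DNA, ranged over 1.94 to 6.44 FPKM, and Utp23, a ribosome assembly factor, over 2.31 to 6.90 FPKM.

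Copz1, a subunit of the coatomer that coats vesicles between Golgi and endoplasmic reticulum, was the steadiest of the 20 genes present throughout when the tail library is left out. It stood at 51.9 FPKM in Koa ear, 55.9 in WT dorsal, 38.8 in WT tail and 51.8 in WT ear dermis, and at 52.0 in Koa ear, 55.0 in WT dorsal and 58.8 in WT ear epidermis. Over the 6 libraries other than tail, its highest value was 1.14 times its lowest, a smaller ratio than in all but 0.207% of 10607 genes at 1 FPKM or more in these libraries. The median of this ratio was 1.82 over the 20 genes and 2.10 over the 10607. Pcbp2 (1.38), Calcoco1 (1.42) and Zfp385a, a zinc-finger protein (1.45), followed Copz1. Over all 7 libraries the ratio was 1.52 for Copz1, above 1.38 for Pcbp2 and 1.42 for Calcoco1. At the other end stood Itga5, whose highest value was 11.7 times its lowest, above 95% of genes, then Hnrnpa1 (4.25), Npff (3.82) and Trps1 (3.80).

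The 8 genes under 1 FPKM in every library are known mostly from other cell types. Nfe2, an erythroid and megakaryocyte transcription factor, reached 0.675 FPKM in dorsal dermis, and Gpr84, a fatty acid receptor of myeloid cells, 0.712 FPKM in Koa ear epidermis. Amhr2, the receptor for anti-Müllerian hormone, reached 0.567 FPKM in dorsal dermis, and Sp7, the osteoblast factor osterix, 0.740 FPKM in tail dermis. Slc30a8, the zinc transporter of insulin granules, did not exceed 0.167 FPKM. Csmd3, a very large membrane protein best known from brain, did not exceed 0.107 FPKM, and Samd12, a SAM-domain protein, 0.692 FPKM. Gtsf1, a piRNA pathway protein of germ cells, was listed at 0 in 6 libraries and at 0.0609 FPKM in dorsal epidermis. For these genes the values rest on few fragments: the smallest whole numbers that match the steps in the data gave Nfe2 4 fragments in Koa ear dermis, 16 in dorsal dermis and 17 in WT ear dermis.

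In ear dermis, the genes beside the inversion ends stood at nearly the same level in Koa and in WT. Differences were taken as log2(FPKM + 1), Koa minus WT, over genes that reached 1 FPKM in either library, and a difference of at least 1 counted as past the size rule. Of the 22 genes kept, 0 passed the rule, where 2.78% of 13690 genes did. At that share a count of 0 is near the background and by itself says nothing particular to these genes. These mice have 1 inverted allele. If both alleles contribute equally, loss of RNA from that allele alone stays short of -1 on this scale. In either layer the rule could therefore not detect such a loss. At the smaller size of 0.5, 1 of the 22 passed, Aard, where 11.0% of all genes did. The median difference was 0.01 over the 22 genes and -0.02 over all 30, beside -0.00 over all genes, whose middle range (the quartiles) ran over -0.16 to 0.17. The median absolute difference was 0.09 for the 22 genes and 0.17 for all genes. Counting error alone is small at this depth: the 95% interval of the Koa over WT ratio left out 1 for 14 of the 22 genes and for 65.6% of all genes with an interval. Such intervals cover counting error only and say nothing of variation between animals.

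Trps1 stood at 8.34 FPKM in Koa ear dermis, against 7.39 FPKM in WT ear dermis. The difference was 0.15 and the ratio 1.13 (1.07 to 1.19), within the middle range of all genes on the log scale. In ear epidermis it stood at 3.16 FPKM in Koa, against 3.34 FPKM in WT, a ratio of 0.945 (0.871 to 1.02). Its level was therefore close between the genotypes in both layers, slightly higher in Koa in 1 and slightly lower in the other. Eif3h, the next expressed gene telomeric of Trps1, had 208 FPKM in Koa ear dermis and 217 FPKM in WT ear dermis (0.959, 0.930 to 0.989). Rad21 had 68.4 and 64.9 FPKM in Koa and WT ear dermis (1.05, 1.02 to 1.08).

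The other genes of the Trps1 end kept to the same range in ear dermis, with Aard as the exception. Ext1, which builds heparan sulfate chains, stood at 29.8 FPKM in Koa, against 31.2 FPKM in WT ear dermis (0.957, 0.928 to 0.987). Med30, a subunit of the Mediator complex, stood at 21.8 FPKM in Koa, against 22.4 FPKM in WT, and Utp23 at 3.72 FPKM in Koa, against 3.84 FPKM in WT, both with an interval that holds 1. Aard, a small protein rich in alanine and arginine, stood at 1.77 FPKM in Koa, against 2.93 FPKM in WT ear dermis, about 72 and 122 fragments. Its difference of -0.50, with a ratio of 0.604 (0.445 to 0.815), was the lowest of the 22 genes and lay at the 3.93 percentile of all genes. Csmd3 had 0.0438 FPKM in Koa, against 0.107 FPKM in WT ear dermis, about 20 and 50 fragments (0.409, 0.231 to 0.700). Both genes thus had fewer fragments in the Koa library.

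On the centromeric side of the Hoxc cluster, 6 of 8 genes kept were higher in Koa ear dermis, by small amounts, and the median difference was 0.12. That median lay within the middle range of all genes, -0.16 to 0.17. Map3k12 overlaps both Pcbp2 and Tarbp2 in sequence, and all are among the 6, so their values may not be independent. Calcoco1, an autophagy receptor, stood at 43.4 FPKM in Koa, against 36.1 FPKM in WT ear dermis (1.20, 1.15 to 1.26). Prr13, a small proline-rich protein, had the highest difference of the 22 genes, 0.37, with 55.0 FPKM in Koa, against 42.3 FPKM in WT (1.30, 1.22 to 1.38). Sp1, the zinc-finger factor that binds GC boxes, had 16.1 FPKM in Koa, against 14.0 FPKM in WT (1.16, 1.11 to 1.21). Tarbp2, the RNA-binding partner of Dicer, had 8.16 and 7.19 FPKM in Koa and WT (1.14, 1.02 to 1.26). Pcbp2 and Map3k12, a kinase upstream of JNK, differed by 0.08 and 0.02. Atf7, a transcription factor of the ATF family, was lower in Koa, with 10.1 FPKM against 11.5 FPKM in WT (0.879, 0.833 to 0.928), as was Npff, the precursor of a neuropeptide, with 3.82 FPKM against 4.27 FPKM in WT (0.890, 0.680 to 1.16). None of these differences reached 0.5.

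On the telomeric side, the 7 genes kept had a median difference of 0.00. Smug1, the closest of all to the Hoxc cluster at 116 kb, had 3.87 FPKM in Koa, against 3.09 FPKM in WT ear dermis (1.25, 1.10 to 1.43). Cbx5, which encodes the heterochromatin protein HP1α, had 12.6 and 12.7 FPKM in Koa and WT (0.992, 0.949 to 1.04), and Copz1 had 51.9 and 51.8 FPKM (1.00, 0.960 to 1.05). Both intervals are narrow and hold 1. Hnrnpa1, a splicing regulator, had 26.5 FPKM in Koa, against 28.5 FPKM in WT (0.928, 0.881 to 0.978). Zfp385a differed by 0.08, with 32.6 FPKM in Koa, against 30.8 FPKM in WT, and Itga5, the α subunit of the fibronectin receptor, by 0.03, with 19.7 FPKM in Koa, against 19.3 FPKM in WT. The interval of each held 1.

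Nckap1l, the blood cell subunit of the WAVE complex that drives actin branching, was the lowest of the 7 genes kept on this side, with 19.3 FPKM in Koa, against 23.8 FPKM in WT ear dermis (0.810, 0.774 to 0.848). Nfe2 had 0.154 FPKM in Koa, against 0.638 FPKM in WT, about 4 and 17 fragments (0.241, 0.0589 to 0.738). Sums of blood cell markers also differed between these libraries, though few single markers outside the mast cell list passed the size rule. The 8 myeloid markers summed to 755 FPKM in Koa, against 1001 FPKM in WT ear dermis, and 1 of them was lower by the size rule. The 6 mast cell markers summed to 154 FPKM in Koa, against 420 FPKM in WT, with 4 of 6 lower by the size rule. The 9 red blood cell and platelet markers found summed to 472 FPKM in Koa, with 1 at 0, and 744 FPKM in WT, with 0 at 0. Of the 5 kept, 0 were past the size rule. The 6 neutrophil markers found summed to 27.3 FPKM in Koa, with 0 at 0, and 46.0 FPKM in WT, with 2 at 0. Of the 4 kept, 0 were past the rule. The 8 leukocyte markers, in contrast, summed to 440 FPKM in Koa, against 424 FPKM in WT. The part of these cells in the values of Nckap1l and Nfe2 was not tested. Sp7 had 0.419 FPKM in Koa, against 0.211 FPKM in WT, about 31 and 16 fragments (1.98, 1.05 to 3.88), beside an osteoblast marker sum of 8.35 FPKM in Koa, with 1 of 6 at 0, and 7.82 FPKM in WT, with 0 at 0.

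**Figure D2:**
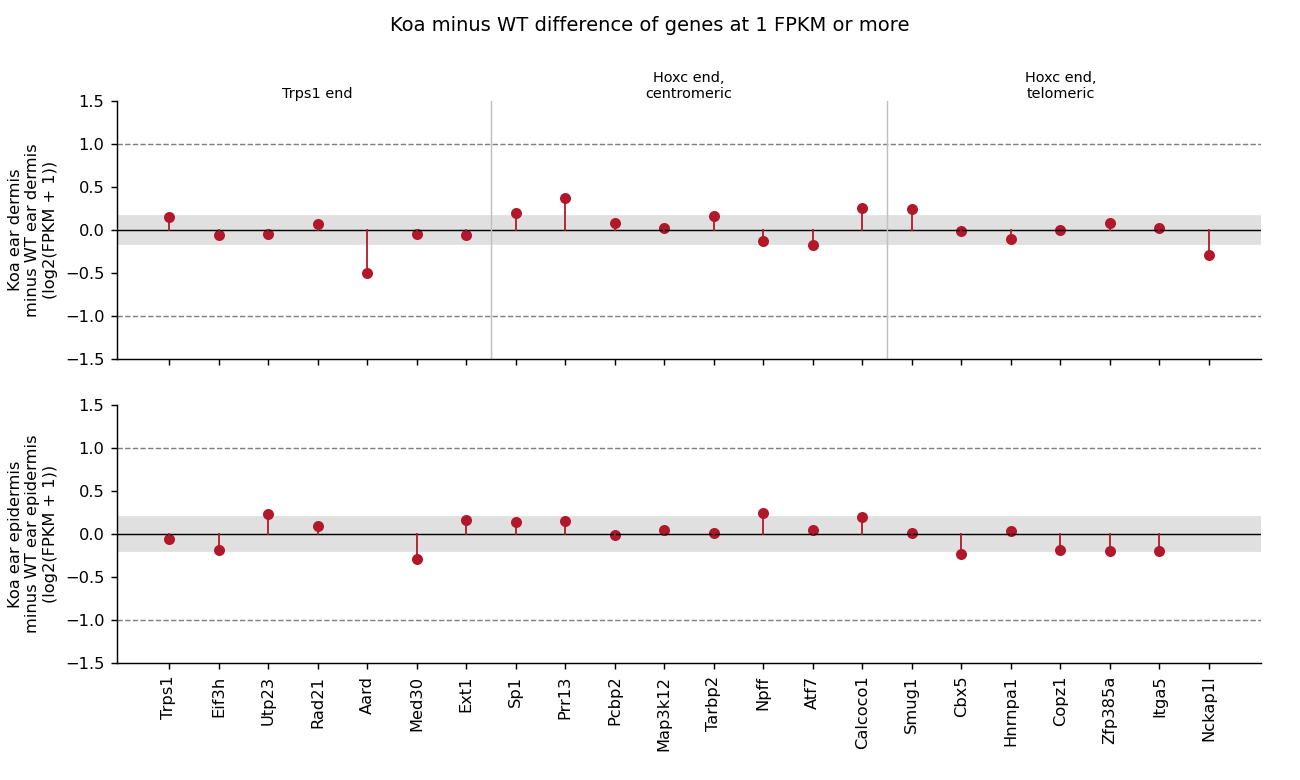
Koa minus WT difference in log2(FPKM + 1) for each gene with at least 1 FPKM, in ear dermis (top) and ear epidermis (bottom), in chromosomal order; the grey band holds the middle quartiles of all genes and dashed lines mark the size rule. All points lie between the dashed lines, from -0.50 for Aard to 0.37 for Prr13 in dermis and from -0.29 for Med30 to 0.25 for Npff in epidermis.

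The genes were also close in ear epidermis: 0 of 20 genes kept passed the size rule, where 3.0% of 12062 genes did, and 0 passed 0.5, where 14.1% of genes did. The count of 0 at the size rule is again near the background. The median absolute difference was 0.16 for the 20 genes and 0.20 for all genes. The median difference was 0.02 over the 20 genes and 0.03 over all 30, beside -0.01 over all genes. The counting interval left out 1 for 12 of the 20 genes and for 73.0% of all genes with an interval. The 8 genes kept on the centromeric side of the Hoxc cluster had a median of 0.10. The 6 kept on the telomeric side had a median of -0.18 and ran from -0.23 to 0.04. The 5 kept telomeric of Trps1 had a median of 0.09.

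Med30 had the lowest difference in epidermis, -0.29, with 31.0 FPKM in Koa, against 38.2 FPKM in WT (0.813, 0.745 to 0.887). Npff had the highest, 0.25, with 7.27 FPKM in Koa, against 5.98 FPKM in WT, and its interval (0.995 to 1.49) held 1. Utp23 had 5.0 FPKM in Koa, against 4.11 FPKM in WT (1.22, 1.07 to 1.39). These extremes were well short of the size rule. Cbx5 stood at 11.3 FPKM in Koa, against 13.5 FPKM in WT epidermis (0.839, 0.803 to 0.877), Eif3h at 365 FPKM in Koa, against 414 FPKM in WT (0.882, 0.862 to 0.901), and Copz1 at 52.0 FPKM in Koa, against 58.8 FPKM in WT (0.884, 0.848 to 0.921). Each of these ratios was below 1 by more than counting error. Transcript length went with the difference over all genes in this comparison. The median was -0.27 under 1000 nt, -0.11 from 1000 to 2000 nt and 0.11 from 8000 nt. The longest transcript has 1007 nt for Med30 and 1295 nt for Eif3h. Against that trend stood Npff, with 995 nt, and Cbx5, with 8803 nt. The part of length in these values was not tested. Calcoco1 stood at 39.7 FPKM in Koa, against 34.3 FPKM in WT epidermis (1.16, 1.10 to 1.21), so it was higher in Koa in both layers. Ext1 stood at 19.3 FPKM in Koa, against 17.2 FPKM in WT (1.13, 1.08 to 1.17).

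The Koa minus WT differences of the 2 layers share no library, so their signs can be set side by side. They may still not be independent. The labels do not say whether both layers came from the same animals, and the dermal libraries hold some epidermal RNA. Of the 20 genes kept in both, 7 were higher in Koa in both layers (Smug1, Calcoco1, Tarbp2, Map3k12, Prr13, Sp1 and Rad21), 3 were lower in both (Cbx5, Eif3h and Med30) and 10 had opposite signs. The share with the same sign was 50.0%, where it was 68.2% over 11514 genes. All 7 genes higher in both differed by less than 0.5 in each layer.

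With short RNAs left out, 4 of 5 genes kept in the Hoxc cluster itself were higher in Koa ear dermis by the size rule, with a median of 1.26, among them Hoxc8 with 10.2 FPKM in Koa, against 0.241 FPKM in WT. In the 1 Mb on either side of the cluster, 0 of 33 genes passed, 15 of them described here. Within 3 Mb, 8 of 63 passed, all of them keratin genes (Krt1, Krt2, Krt5, Krt6a, Krt71, Krt73, Krt75 and Krt83) and none of them among the 30. Krt5 stood at 787 FPKM in Koa, against 267 FPKM in WT ear dermis, beside the epidermal shares given above. Within 3 Mb of Trps1, 0 of 7 genes passed, all 7 described here. On other chromosomes 1.88% of 12858 genes passed the rule in the same comparison. In ear epidermis, 2 of 31 genes within 1 Mb of the Hoxc cluster passed, Krt78 and Krt8, and 10 of 64 within 3 Mb, all of them keratin genes and higher in Koa. Within 3 Mb of Trps1, 0 of 6 passed, where 2.05% of 11291 genes on other chromosomes did. At these shares the counts of 0 near Trps1, and of 0 of 33 beside the Hoxc cluster in dermis, are near the background.

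Many of the genes work in complexes whose other subunits are encoded elsewhere, and lists of these partners were counted in Koa against WT ear dermis. With 2.78% of all genes past the rule there, a count of 0 or 1 in a list of this length is near the background and says nothing particular to the list. Of 10 cohesin and CTCF genes listed as partners of Rad21, 0 were past the rule in either direction, with a median of 0.09. The same count was 0 of 8 for coatomer genes beside Copz1 (median 0.01), 0 of 12 for eIF3 subunits beside Eif3h (-0.08) and 0 of 12 for Mediator subunits beside Med30 (-0.11). It was 0 of 6 for HP1 partners of Cbx5 (0.06), 0 of 10 for hnRNP genes beside Hnrnpa1 (0.10), 0 of 9 for heparan sulfate enzymes beside Ext1 (-0.05) and 0 of 10 for WAVE genes beside Nckap1l (-0.08). For microRNA machinery beside Tarbp2 it was 0 of 8 (0.04) and for poly(C)-binding genes beside Pcbp2 0 of 4 (-0.05). In the Sp family beside Sp1, 1 of 7 genes kept was higher: Klf5, a Krüppel-like factor of epithelia, with 10.1 FPKM in Koa, against 4.19 FPKM in WT. Among integrin partners of Itga5, 0 of 10 passed, and the widest difference was 0.90 for Itga6, a basal keratinocyte integrin, with 22.9 FPKM in Koa, against 11.8 FPKM in WT. In ear epidermis, where 3.0% of all genes passed, the same 12 lists had 0 genes past the rule except for 1 higher in each of 2 lists: Fn1, fibronectin itself, with 9.13 FPKM in Koa, against 3.71 FPKM in WT, and Sp6, an epithelial Sp factor, with 1.91 FPKM in Koa, against 0.453 FPKM in WT. The epidermal median was -0.18 for eIF3 subunits, beside -0.18 for Eif3h itself, and -0.17 for Mediator subunits, beside -0.29 for Med30. It was -0.07 for HP1 partners, beside -0.23 for Cbx5, and -0.00 for coatomer genes, beside -0.18 for Copz1.

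Between body regions of WT mice, the same genes differed by more. In dorsal against ear dermis, 4 of 22 genes kept passed the size rule, where 18.8% of 14234 genes did. Hnrnpa1 and Prr13 were higher in dorsal dermis (11.7% of genes were higher), and Itga5 and Aard were lower (7.05% of genes were lower). At 0.5, 2 genes were higher and 7 lower, where 23.0% of genes were higher and 21.7% lower, 44.7% in all. The median was -0.13 over the 22 genes and -0.02 over all 30, beside -0.05 over all genes. The share of 4 in 22 is near the background, and with a pseudocount of 5 the count was 0.

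Hnrnpa1 stood at 60.3 FPKM in dorsal dermis and 57.0 FPKM in tail dermis, against 26.5 FPKM in Koa ear dermis and 28.5 FPKM in WT ear dermis. In epidermis it stood at 113 FPKM in dorsal skin, against 52.0 FPKM in Koa ear and 50.8 FPKM in WT ear. The deposited level was thus higher in dorsal than in ear skin within each layer, and it was close between the genotypes. In dermis the sign changed once an epidermal share was subtracted without rescaling. That step lowers dorsal dermis more by construction, so it cannot decide the direction there. The dorsal minus ear difference was 1.05 in dermis (2.11, 2.02 to 2.21) and 1.13 in epidermis (2.22, 2.15 to 2.29). Cbx5, which starts beside it on the opposite strand, ran the other way. It measured 6.76 FPKM in dorsal and 5.97 FPKM in tail dermis, against 12.6 FPKM in Koa ear and 12.7 FPKM in WT ear dermis, and at 7.69 FPKM in dorsal epidermis, against 11.3 FPKM in Koa ear and 13.5 FPKM in WT ear. Its dorsal minus ear difference was -0.82 in dermis (0.534, 0.505 to 0.564) and -0.74 in epidermis (0.570, 0.541 to 0.60), short of the size rule in both.

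The ratio of Hnrnpa1 to Cbx5 was higher in the dorsal and tail libraries than in both ear libraries of the same layer. It was 8.93 in dorsal and 9.54 in tail dermis, against 2.11 in Koa ear and 2.25 in WT ear dermis, and 14.6 in dorsal epidermis, against 4.59 in Koa ear and 3.76 in WT ear epidermis. Transcript length differed between the pair, 3118 nt for Hnrnpa1 and 8803 nt for Cbx5, and length went with the dorsal minus ear difference over all genes. In dermis the median difference was 0.37 for genes with transcripts under 1000 nt, 0.12 from 1000 to 2000 nt, -0.01 from 2000 to 4000 nt, -0.15 from 4000 to 8000 nt and -0.22 from 8000 nt. In epidermis these medians were 0.40, 0.18, -0.01, -0.12 and -0.22. Prr13, also higher in dorsal dermis, has a longest transcript of 1353 nt. The part of length in these differences was not tested. Among 10 hnRNP partners, 1 was higher by the rule in dorsal skin in each layer: Hnrnpc, with 111 FPKM in dorsal, against 44.3 FPKM in ear dermis, and 163 FPKM in dorsal, against 73.5 FPKM in ear epidermis. That count is near the background, as 11.7% of all genes were higher in dermis and 11.5% in epidermis. The 6 HP1 partners had a median of 0.09 in dorsal against ear dermis, with 0 past the rule. The one with the widest difference was Suv39h1, which methylates histones at heterochromatin, with 5.19 FPKM in dorsal, against 10.2 FPKM in ear dermis.

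**Figure D3:**
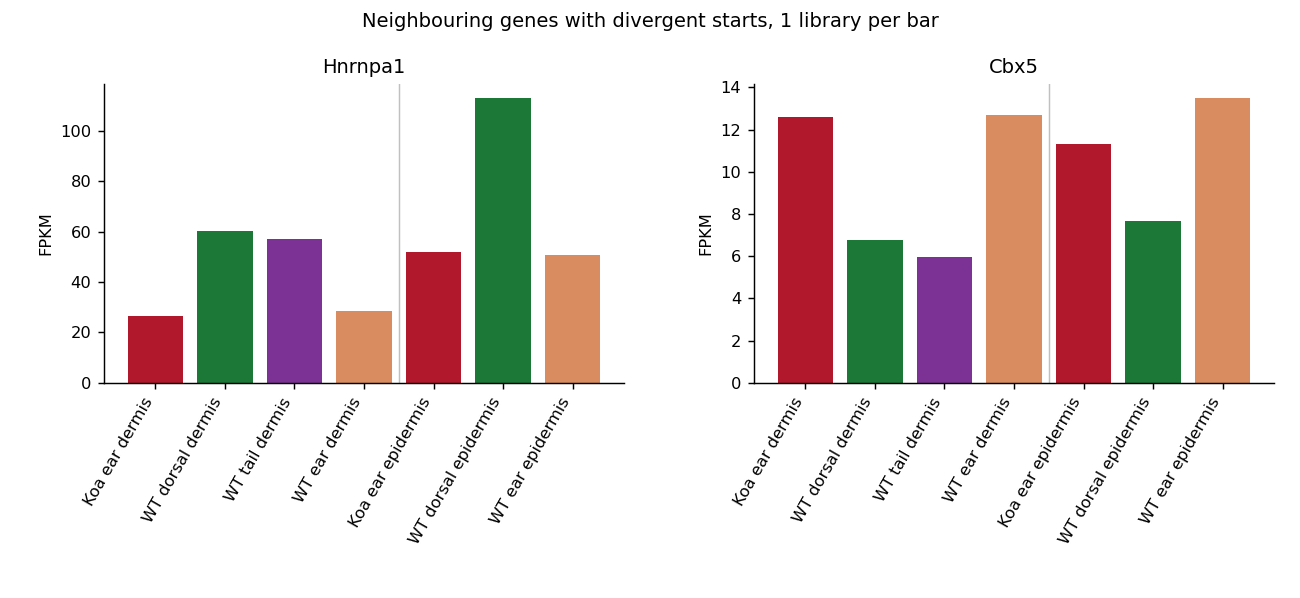
FPKM of Hnrnpa1 (left) and Cbx5 (right), each bar 1 library, dermis left and epidermis right of the grey line. Dorsal and tail bars are taller than ear bars for Hnrnpa1 (113 FPKM in dorsal epidermis, against 50.8 FPKM in WT ear epidermis) and shorter for Cbx5 (7.69 FPKM, against 13.5 FPKM).

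Itga5 stood at 7.85 FPKM in dorsal dermis and 29.8 FPKM in tail dermis, against 19.7 FPKM in Koa ear dermis and 19.3 FPKM in WT ear dermis. Dorsal dermis was thus the lowest dermal library and tail dermis the highest. The dorsal minus ear difference was -1.19 (0.408, 0.380 to 0.437). Aard stood at 0.351 FPKM in dorsal dermis, about 13 fragments, against 2.93 FPKM in WT ear dermis, a difference of -1.54 (0.120, 0.0620 to 0.213). Trps1 stood at 4.06 FPKM in dorsal dermis and 7.39 FPKM in WT ear dermis (0.549, 0.513 to 0.587). Atf7 (0.567), Npff (0.448) and Nckap1l (0.613) also had dorsal over ear ratios well under 1. In the same comparison the 8 fibroblast markers had a median difference of -0.88, with 3 lower and 1 higher by the size rule. The 8 leukocyte markers had a median of 0.27, with 0 past the rule in either direction. How far the unequal epidermal shares enter these ratios was not tested beyond the subtraction below, which cannot decide it.

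The dermal libraries held unequal amounts of keratinocyte RNA, with an epidermal share of 37.7% in dorsal and 7.16% in WT ear dermis. With the estimated epidermal share subtracted from both libraries, 8 of the 22 genes kept passed the rule, all lower in dorsal dermis, where 35.9% of 13481 genes passed and 31.0% were lower. The median was then -0.89 over the 22 genes and -0.72 over all genes. What was left was not rescaled to the remaining dermal share. The larger share taken from dorsal dermis thus lowered genes there in general, and raised the count of lower genes, by construction. Prr13 then differed by 0.62 and Hnrnpa1 by -0.45, both above the all-gene median. These values cannot decide whether Prr13 stays past the rule, or the direction of Hnrnpa1, apart from keratinocyte RNA. In the epidermal libraries, where nothing was subtracted, Hnrnpa1 was higher in dorsal skin.

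In dorsal against ear epidermis, 1 of 20 genes passed the size rule, Hnrnpa1, where 16.9% of 12500 genes did (11.5% higher and 5.47% lower). At 0.5, 4 were higher and 1 lower, where 24.0% of genes were higher and 20.3% lower, 44.4% in all. The median was -0.01 over the 20 genes and 0.06 over all 30, beside -0.02 over all genes. The higher genes were Hnrnpa1, Utp23 with 6.90 FPKM in dorsal, against 4.11 FPKM in ear epidermis, Prr13 with 72.0 and 47.8 FPKM, and Ext1 with 25.5 and 17.2 FPKM in dorsal and ear epidermis. The lower one was Cbx5. Between regions, 7 genes were higher and 8 lower in dorsal skin in both layers and 5 had opposite signs. The share with the same sign was 75.0%, close to 73.9% over 12146 genes.

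**Figure D4:**
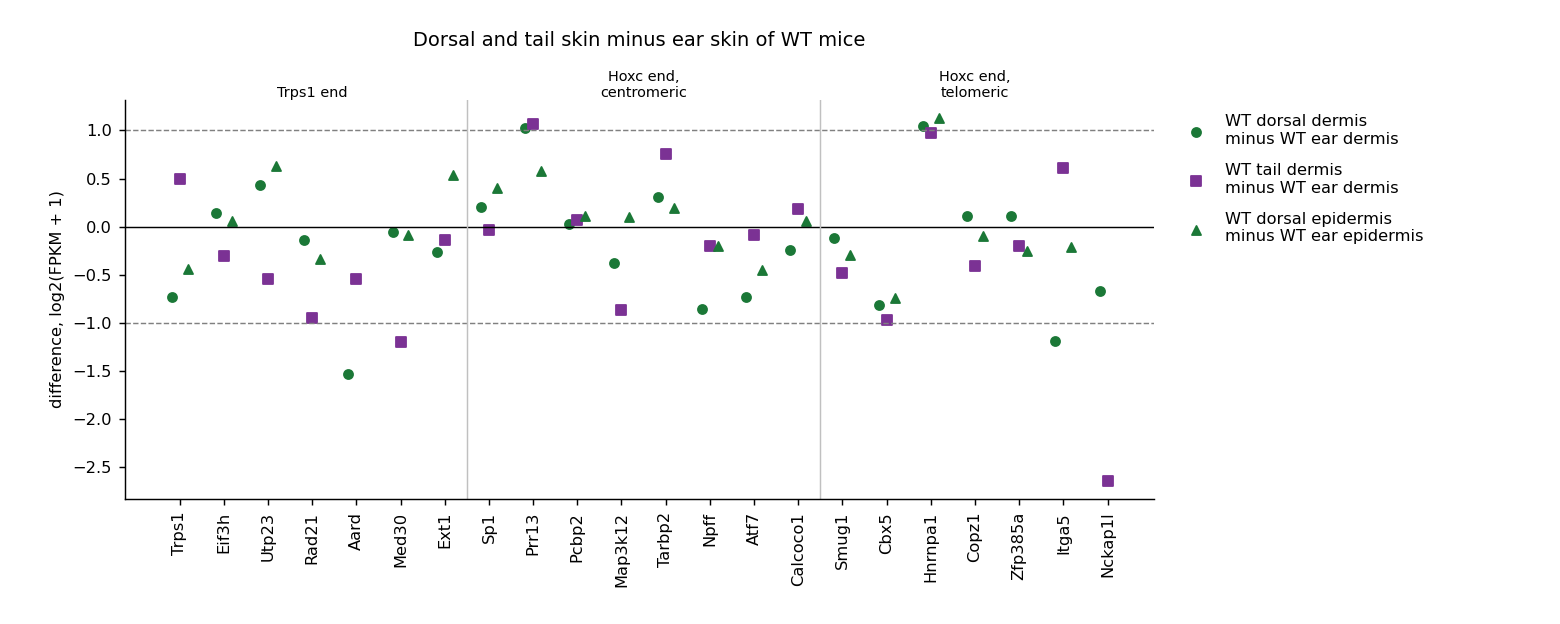
Difference in log2(FPKM + 1) from WT ear skin of the same layer for dorsal dermis, tail dermis and dorsal epidermis, for genes with at least 1 FPKM, in chromosomal order; dashed lines mark the size rule. Hnrnpa1 lies at 0.97 to 1.13 in all 3 comparisons (before any subtraction of the epidermal share) and Cbx5 at -0.97 to -0.74, while Itga5 lies at -1.19 in dorsal and 0.61 in tail dermis.

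In tail against ear dermis, 3 of 22 genes passed the size rule, where 33.3% of 13666 genes did (6.32% higher and 27.0% lower), and 63.5% of genes passed 0.5. The median over all genes was itself shifted, at -0.51, and at -0.33 among genes with at least 5 FPKM in both libraries, while it was -0.20 over the 22 genes and -0.16 over all 30. Prr13 was higher in tail dermis, with 89.8 FPKM against 42.3 FPKM in ear dermis. Nckap1l was lower, with 2.95 FPKM in tail and 23.8 FPKM in ear dermis (-2.65), and so was Med30, with 9.14 FPKM in tail and 22.4 FPKM in ear dermis (-1.20). Med30 did not pass once the libraries were rescaled to a median ratio of 1 (-0.89) or with a pseudocount of 5 (-0.95). Hnrnpa1 was just short of the rule at 0.97, as were Cbx5 at -0.97 and Rad21 at -0.95. Against the shifted median they were not alike: Hnrnpa1 lay at the 93.4 percentile of all genes, Cbx5 at the 28.2 and Rad21 at the 29.0 percentile. Map3k12 stood at 9.17 FPKM in tail and 17.6 FPKM in ear dermis, and Tarbp2 at 12.7 FPKM in tail and 7.19 FPKM in ear dermis. Of the 10 cohesin and CTCF partners of Rad21, 6 were lower by the rule in tail dermis, as were 5 of 12 Mediator partners of Med30. Lower genes were not limited to these lists. They were 4 of 10 WAVE genes, 4 of 12 eIF3 subunits and 3 of 8 coatomer genes, against 0 of 10 hnRNP genes and 27.0% of all genes. The tail library differs in rounding and sex from the ear library, and the part of either in these values was not tested.

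Between skin layers, 2 of the 21 genes kept in all 3 pairs of libraries, Nckap1l and Itga5, were higher in dermis by the size rule in every pair, where 13.4% of 13047 genes were. With a pseudocount of 5, Itga5 fell short of the rule in dorsal skin, at 0.94. Of 22 genes kept, 4 passed the size rule in Koa ear, all of them higher in dermis, where 33.1% of 13954 genes passed and 20.4% were higher. In WT ear 3 of 22 passed, all higher in dermis, where 35.6% of 13840 genes passed and 21.3% were higher. In dorsal skin 3 of 21 passed, 2 of them higher in dermis, where 24.4% of 13896 genes passed and 16.1% were higher. At 0.5, 9, 11 and 9 genes passed in Koa ear, WT ear and dorsal skin, where 57.6%, 60.5% and 50.6% of genes did.

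Nckap1l had the widest difference between the layers in each pair. It stood at 19.3 FPKM in Koa ear, 14.6 FPKM in dorsal, 2.95 FPKM in tail and 23.8 FPKM in WT ear dermis, and at 0.0813 FPKM in Koa ear, 0.0839 FPKM in dorsal skin and 0.214 FPKM in WT ear epidermis. The dermis minus epidermis difference was 4.23 in Koa ear, 3.85 in dorsal skin and 4.35 in WT ear. Its relative Nckap1, which serves the WAVE complex in cells outside the blood lineage, ran the other way in ear, with 49.4 FPKM in Koa ear dermis, against 77.0 FPKM in Koa ear epidermis, and 55.3 FPKM in WT ear dermis, against 91.1 FPKM in WT ear epidermis. Leukocyte markers summed to 440 FPKM in Koa ear, 477 FPKM in dorsal, 104 FPKM in tail and 424 FPKM in WT ear dermis, so tail dermis was the lowest dermal library in both measures. In epidermis they summed to 70.1 FPKM in Koa ear, 73.8 FPKM in dorsal skin and 83.6 FPKM in WT ear. Nckap1l amounted to 4.39% of that sum in Koa ear, 3.06% in dorsal, 2.84% in tail and 5.62% in WT ear dermis. In epidermis it amounted to 0.114% to 0.256%. The epidermal sum was mostly Arhgdib, at 67.3 FPKM in Koa ear, 66.9 FPKM in dorsal skin and 82.1 FPKM in WT ear. The percentages therefore cannot show whether Nckap1l ran with the other markers across the layers. By the size rule, 7 of 8 leukocyte markers were higher in dermis in Koa ear and in WT ear. In dorsal skin 8 of 8 were. Ptprc, the common leukocyte antigen, stood at 4.0 to 50.8 FPKM in dermis and at most at 0.325 FPKM in epidermis.

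Itga5 was also higher in dermis throughout. Against the dermal values above, it stood at 1.73 FPKM in Koa ear, 1.69 FPKM in dorsal skin and 2.12 FPKM in WT ear epidermis, with differences of 2.93 in Koa ear, 1.72 in dorsal skin and 2.70 in WT ear. Its partner subunit Itgb1 stood at 145 to 236 FPKM in dermis and 94.6 to 124 FPKM in epidermis, and their ligand fibronectin, Fn1, at 183 to 394 FPKM in dermis and 3.71 to 9.13 FPKM in epidermis. Aard was higher in dermis by 1.40 in Koa ear and 1.97 in WT ear (0.42 and 0.67 with a pseudocount of 5), with the dermal values above against 0.0493 FPKM in Koa ear epidermis and a listed value of 0 in WT ear epidermis. Trps1 was higher in dermis than epidermis by 1.17 in Koa ear, 0.66 in dorsal skin and 0.95 in WT ear, past the rule in Koa ear (though not with a pseudocount of 5, at 0.71) and just short of it in WT ear; the difference between these pairs was not tested.

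Several genes were higher in epidermis without passing the rule. Hnrnpa1 differed by -0.95 in Koa ear, -0.89 in dorsal skin and -0.81 in WT ear, and Eif3h by -0.81, -0.84 and -0.93. The 12 eIF3 partners of Eif3h had medians of -0.78, -0.75 and -0.83 in these pairs, so Eif3h lay near the middle of its complex. Smug1 differed by -0.61 in Koa ear, -0.66 in dorsal skin and -0.85 in WT ear. Npff passed the rule in dorsal skin, where it stood at 1.90 FPKM in dermis and 5.07 FPKM in epidermis (-1.06), and differed by -0.78 in Koa ear and -0.40 in WT ear. In dorsal skin it fell short of the rule after rescaling (-0.80) and with a pseudocount of 5 (-0.54).

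**Figure D5:**
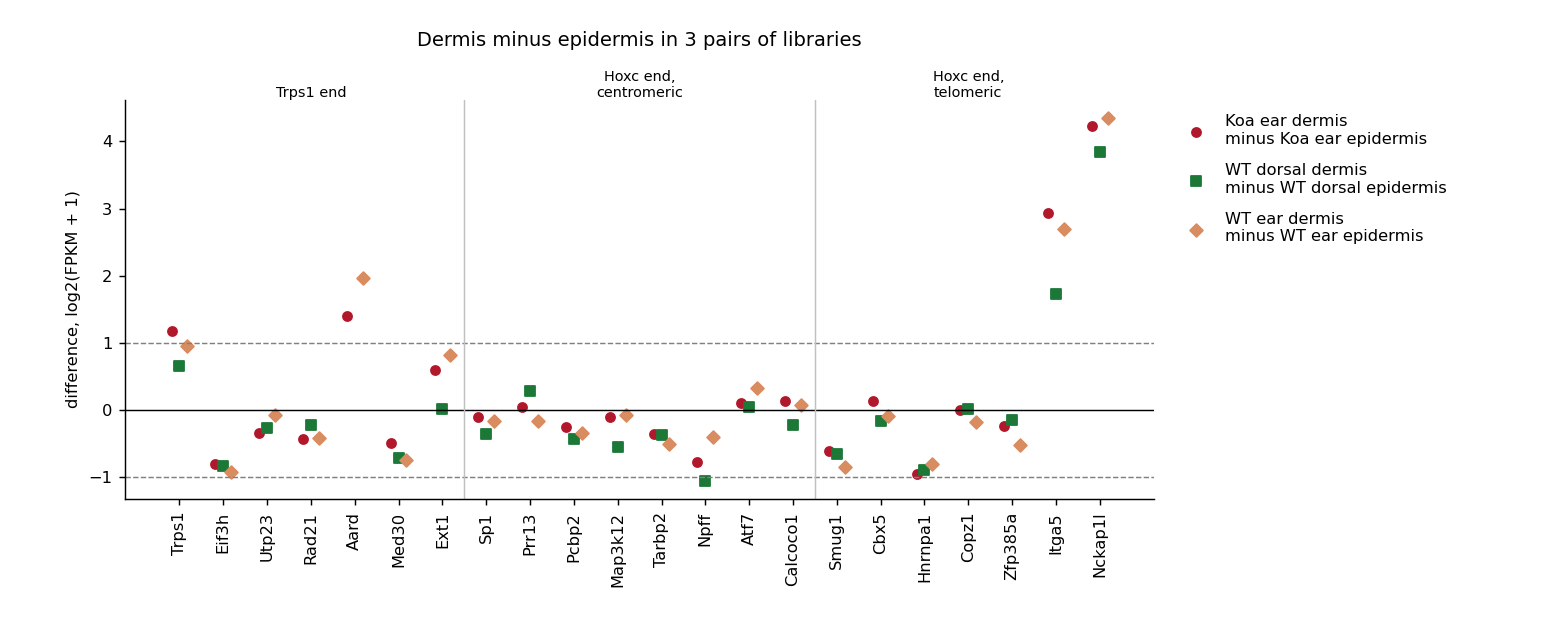
Dermis minus epidermis difference in log2(FPKM + 1) within Koa ear, WT dorsal and WT ear skin, for genes with at least 1 FPKM, in chromosomal order; dashed lines mark the size rule. Nckap1l (3.85 to 4.35) and Itga5 (1.72 to 2.93) lie above the rule in all 3 pairs, and most other genes lie between the lines.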

How the data were processed

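The deposited table holds FPKM per gene for 7 libraries. The authors' tools were TopHat2 2.0.13 with Cufflinks 2.2.1, and the builds GRCm38 and mm9 are named without a role, per the submitters' processing notes. Annotation and strand setting are not given in the sources used here. Misspelled names of 2 columns were resolved through sample titles. Differences were taken as log2(FPKM + 1), pseudocount 1, among genes with at least 1 FPKM in 1 of 2 libraries. Col1a1, Col1a2 and Col3a1, listed at 0 in dermal libraries, were left out of counts. FPKM values under 0.5 lay on whole-fragment steps in 53.6% to 57.5% of ratios (tolerance 0.3%). A fit over 592 genes then gave depths of 31.7 to 40.4 M fragments and a length offset of 205 nt. For 8 low genes the smallest whole numbers on the steps served as fragments, which gives the widest intervals. Otherwise fragments came from FPKM, depth and the longest GENCODE transcript. Ratio intervals are exact 95% Clopper-Pearson intervals, for counting error only. The epidermal share was estimated from 8 basal keratinocyte markers, and values left after its subtraction were not rescaled. The procedure was run on simulated data with counting error only and known transcript lengths. That run did not cover transcript choice or variation between animals. Positions and promoters are RefSeq GRCm38.p6, and 22290 of 22552 symbols were matched. Python 3.11.15, NumPy 2.4.6, pandas 2.3.3 and SciPy 1.17.1 were used.

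The 30 genes, the 12 marker lists and 12 partner lists were chosen with earlier results of these data known. All 30 genes are named, and of each list the counts, the median and up to 3 genes with the widest difference. Chosen after values were seen were the 4 promoters printed, the length classes, the sign counts between layers, the spread over 6 libraries, the share of intervals without 1, the Hnrnpa1 to Cbx5 ratio, and the leukocyte sum beside Nckap1l. Alternatives were other pseudocounts, filters, scalings and sizes, and subtraction of the epidermal share.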

Additional observations from a re-analysis of the deposited data

How the results depend on the processing

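The count was 0 in both Koa against WT comparisons under other pseudocounts (0.1 and 5), no filter, a filter of 5 FPKM, rescaling to a median ratio of 1 and, in dermis, subtraction of the epidermal share. At a size of 0.5 the count was 1 in dermis and 0 in epidermis. At 0.5 the counts were 9 in dorsal against ear dermis, 5 in dorsal against ear epidermis, 12 in tail against ear dermis, and 9, 11 and 9 between layers of Koa ear, WT ear and dorsal skin; a smaller size calls more genes by construction. With pseudocount 5 the count was 0 in dorsal against ear dermis, 2 between layers of Koa ear and 1 between layers of dorsal skin. With pseudocount 0.1 or rescaling it was 5 between layers of WT ear. Without a filter the median was -0.02 in dorsal against ear dermis, -0.00 between layers of Koa ear and -0.08 between layers of WT ear. With a filter of 5 FPKM it was -0.12 in tail against ear dermis. Rescaling gave medians of -0.05 in dorsal against ear dermis, 0.09 in tail against ear dermis, and 0.14, 0.08 and 0.09 between layers of Koa ear, WT ear and dorsal skin. Subtracting the epidermal share, without rescaling what was left, gave 8 genes and a median of -0.89 in dorsal against ear dermis. The all-gene median was then -0.72, and Hnrnpa1 stood at -0.45. The causes were not tested beyond what each alternative does by construction. Of the other values under alternatives, 77 counts and medians and 58 single-gene values stayed within 1.5 times the count or within a tolerance, and 35 single-gene values moved further with the same sign. For a single gene the tolerance came from the width of its counting interval. For medians, and for genes without a full interval, it came from the median width over the genes kept. Tail against ear dermis has no intervals and took the tolerance of Koa against WT ear dermis. No paired analysis was possible because each group has 1 library and the labels give no replicate numbers. Depth limits the 8 genes under 1 FPKM, whose intervals are wide, and leaves the tail library without intervals.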
